A study of Mus musculus with 48 samples.

Results

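The endoplasmic reticulum (ER) is the compartment in which secreted and membrane proteins are folded. Here 49 genes of ER folding and of the unfolded protein response were followed in the cerebral cortex of mice, out of 24444 genes in the deposited table. They were chosen by function and comprised 11 chaperones and cochaperones, 7 oxidoreductases and isomerases, 3 genes of the lectin cycle, 4 stress sensors, 4 transcription factors and effectors, 10 genes of ER-associated degradation, 6 genes of the translocon and 4 of the oligosaccharyltransferase. All 49 had values in all 48 samples, and all 49 passed the filter on low values in each comparison. RNA-seq was performed on cortex of wild-type (WT) mice and of littermates heterozygous for a premature stop codon in the chromatin remodeler gene Chd8 (Chd8 V986*/+, HET). Each of the 8 groups held 6 animals, with the 2 genotypes sampled at embryonic day 14.5 (E14.5) and then 1 month, 6 months and 12 months after birth. All were male C57BL/6J mice, each gave the cortex of one hemisphere, and the mutant allele, made with CRISPR/Cas9, is a germline allele, so that the HET mice carried it in all tissues. The line goes back to one founder, and the WT controls carried no engineered allele. The values are variance-stabilized (VST) values on the log2 scale, so that for well-expressed genes a difference of 1 is close to a doubling.

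Proteins enter the ER through the Sec61 translocon, receive N-glycans from the oligosaccharyltransferase and fold with the help of the Hsp70 chaperone BiP (Hspa5), the Hsp90 chaperone Grp94 (Hsp90b1), disulfide isomerases and the calnexin/calreticulin lectin cycle. Proteins that fail to fold are pulled back to the cytosol and degraded. When unfolded protein accumulates, the sensors IRE1 (Ern1), PERK (Eif2ak3) and ATF6 act through XBP1, ATF4 and cleaved ATF6 to raise transcription of chaperones and degradation factors. Sensor activity is set mainly by phosphorylation, proteolysis, RNA splicing and translation. A value per gene, as analysed here, shows neither the spliced form of Xbp1 nor translation of Atf4.

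Chd8 itself was lower in every HET mouse than in every WT mouse of its age, with differences (HET minus WT) of -0.54 at 12 months to -0.67 at 1 month (limma, adjusted p = 0.0026 and 3.0e-06). Defining markers of neurons were present: the mean of 5 neuron markers lay between 10.64 and 11.02 at E14.5 and between 14.43 and 14.79 after birth. Several libraries stood apart. At E14.5 the mean of 8 markers of midbrain, hindbrain and spinal cord ranged from 2.91 to 7.04 in WT and from 3.16 to 4.92 in HET mice. The mean of 5 choroid plexus genes varied between mice of both genotypes after birth. In WT mice it ranged from 6.35 to 8.96 at 1 month, 6.60 to 9.56 at 6 months and 6.96 to 8.07 at 12 months. In HET mice the ranges were 6.16 to 9.37, 6.29 to 8.06 and 6.14 to 8.67. Replicate 1 of each genotype at E14.5, and replicates 3 and 4 of WT at 12 months, are taken up below.

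Promoters of ER chaperone genes are known for the ER stress response element, in which a CCAAT box bound by NF-Y lies 9 bases from a CCACG site bound by ATF6 or XBP1. RefSeq windows of 250 bases before to 50 bases after the start of transcription (build GRCm38.p6) were found for 40 of the 49 genes. The full element, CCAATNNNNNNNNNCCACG on either strand, was present in 9 of these 40 genes (22.5%), compared with 37 of 27025 genes in the whole table of windows (0.137%). It was found for Hspa5, Hsp90b1, Dnajc3, Creld2, Pdia6, Calr, Canx, Syvn1 and Derl3. Hsp90b1 had 2 copies. The shorter element II, in which ATTGG and CCACG are separated by 1 base (either strand) and which can share its CCACG with a longer element, was present for Herpud1 and Dnajb11, against 0.0444% of all genes. The unfolded protein response element TGACGTGG was in none of the 40 windows and in 0.714% of all genes, and the core of the C/EBP-ATF composite element, TGATGNAAN, was in the windows of Trib3 and Herpud1 and of 4.50% of all genes. None of these elements was found in the windows of Sdf2l1, Xbp1 and Ddit3, which are also described closely below. The windows of 5 genes that held the full element or element II are shown. The 5 windows run 5′ to 3′ on the strand of the gene, with the fixed letters of elements I and II in capitals. They are Hspa5 (chr2:34771840-34772139, plus strand), Hsp90b1 (chr10:86705395-86705694, minus strand), Pdia6 (chr12:17266339-17266638, plus strand), Calr (chr8:84846882-84847181, minus strand) and Herpud1 (chr8:94386179-94386478, plus strand).
Hspa5: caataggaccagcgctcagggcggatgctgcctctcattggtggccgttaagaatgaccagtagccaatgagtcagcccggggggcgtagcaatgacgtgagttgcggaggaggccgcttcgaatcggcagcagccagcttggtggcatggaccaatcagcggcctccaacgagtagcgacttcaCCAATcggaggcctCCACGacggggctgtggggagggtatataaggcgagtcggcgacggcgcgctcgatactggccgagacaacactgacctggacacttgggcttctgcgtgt
Hsp90b1: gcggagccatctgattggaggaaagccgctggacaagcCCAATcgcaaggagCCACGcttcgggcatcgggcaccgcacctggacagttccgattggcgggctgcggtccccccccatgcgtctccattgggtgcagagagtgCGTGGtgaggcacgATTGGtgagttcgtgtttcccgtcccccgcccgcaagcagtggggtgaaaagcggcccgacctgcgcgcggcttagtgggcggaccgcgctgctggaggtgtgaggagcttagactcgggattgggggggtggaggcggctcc
Pdia6: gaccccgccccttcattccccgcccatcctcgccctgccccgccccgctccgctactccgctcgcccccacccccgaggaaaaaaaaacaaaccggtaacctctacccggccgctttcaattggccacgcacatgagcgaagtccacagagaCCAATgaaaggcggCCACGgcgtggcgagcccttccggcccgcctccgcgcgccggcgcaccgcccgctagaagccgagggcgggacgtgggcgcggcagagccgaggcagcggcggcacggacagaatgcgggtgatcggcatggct
Calr: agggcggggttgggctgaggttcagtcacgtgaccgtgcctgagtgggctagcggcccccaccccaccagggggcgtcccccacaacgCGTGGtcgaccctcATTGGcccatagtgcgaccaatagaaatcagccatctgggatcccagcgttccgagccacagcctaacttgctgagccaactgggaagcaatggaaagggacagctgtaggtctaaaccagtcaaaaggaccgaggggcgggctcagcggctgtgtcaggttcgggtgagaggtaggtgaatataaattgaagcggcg
Herpud1: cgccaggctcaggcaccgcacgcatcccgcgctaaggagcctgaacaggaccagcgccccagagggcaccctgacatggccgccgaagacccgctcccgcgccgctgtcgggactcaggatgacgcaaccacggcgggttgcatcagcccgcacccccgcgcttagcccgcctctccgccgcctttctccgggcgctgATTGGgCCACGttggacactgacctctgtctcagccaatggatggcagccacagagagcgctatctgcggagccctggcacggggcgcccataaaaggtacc

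The levels of the genes were compared per length at 12 months, as the mean VST value over the 12 mice minus log2 of the longest coding transcript in kilobases. Whether that transcript is the one expressed was not examined, so ranks depend on this choice (for Erp29, 5204 bases). Among chaperones the highest was Hsp90b1 (11.70; mm9 chr10:86152954-86168254, minus strand), followed by Hspa5 (11.44; mm9 chr2:34627490-34632051, plus strand), and the lowest was Creld2 (7.62), an ER protein with EGF-like repeats that is induced by ER stress. Calr, which encodes the lectin calreticulin, had the highest level per length of all 49 genes (12.16), and Uggt1, the glucosyltransferase that returns misfolded glycoproteins to the lectins, the lowest of its role (7.99). The oxidoreductases ranged from 8.04 for Erp29 to 10.94 for Pdia3, the partner of calreticulin and calnexin. Among the sensors Atf6b was highest (8.98) and Ern1 lowest (4.94). Atf4 led the transcription factors and effectors (10.76), and the pseudokinase gene Trib3 was the lowest of all 49 genes (3.56). In the degradation group the levels spanned 4.65 for Derl3 to 10.06 for Sel1l, the adaptor of the Hrd1 ubiquitin ligase. Translocon genes spanned 8.87 for Sec61b to 10.43 for Ssr3, and the oligosaccharyltransferase genes 9.47 for Ostc to 9.96 for Ddost.

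The largest changes in these genes came between the embryonic and the young adult cortex, and they differed in direction between roles. The comparison of E14.5 with 1 month asked which genes change as cortex matures. In WT mice 15 of 49 genes rose and 24 fell at an adjusted p below 0.1, and in HET mice 17 rose and 24 fell. Over all genes 43.9% rose and 41.7% fell in WT mice, and 44.5% and 42.1% in HET mice. After quantile normalization between samples, 12 rose and 29 fell in WT and 13 rose and 31 fell in HET mice. This normalization moved the median of all genes by -0.14 in each genotype. The shares of all genes called after it are not given, so these counts are not set against the background. As deposited, 39 of 49 members in WT and 41 of 49 in HET mice were called in either direction, compared with 85.5% and 86.5% of all genes, so the counts are near the background. In bulk tissue a change in the share of a cell type and a change of RNA per cell cannot be told apart, and between these ages neurons mature and glia appear: the mean of 5 oligodendrocyte markers, for example, was 7.33 in WT at E14.5 and 14.13 at 1 month. The part of this shift in the results was not tested.

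Among genes that bring proteins into the ER and glycosylate them, 4 of 6 translocon genes and 3 of 4 oligosaccharyltransferase genes fell in each genotype and none rose. Sec61b, a subunit of the protein channel, was the largest fall of the 49 genes, by -1.32 (SE 0.07, adjusted p = 2.2e-15) in WT and -1.25 (SE 0.09, adjusted p = 2.6e-13) in HET mice. Its mean ± SD (n = 6) at E14.5, 1, 6 and 12 months was 9.41 ± 0.12, 8.09 ± 0.14, 8.003 ± 0.09 and 8.04 ± 0.13 in WT and 9.44 ± 0.17, 8.20 ± 0.21, 8.13 ± 0.10 and 8.04 ± 0.13 in HET mice. Sec61a1, which forms the pore, changed by -1.08 and -1.09 in the 2 genotypes. Rpn1, a ribophorin that holds the oligosaccharyltransferase at the ribosome, averaged 11.85 ± 0.07, 11.83 ± 0.07, 11.79 ± 0.08 and 11.92 ± 0.14 in WT and 11.84 ± 0.06, 11.86 ± 0.09, 11.77 ± 0.05 and 11.72 ± 0.06 in HET mice over the 4 ages.

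Of the oxidoreductases and isomerases, 6 of 7 fell in WT and 7 of 7 in HET mice. P4hb, the founding protein disulfide isomerase, changed by -1.10 (SE 0.06, adjusted p = 7.5e-15) in WT mice. Pdia4 averaged 11.65 ± 0.22, 10.83 ± 0.18, 10.32 ± 0.35 and 10.41 ± 0.37 in WT and 11.72 ± 0.22, 10.91 ± 0.25, 10.47 ± 0.24 and 9.99 ± 0.07 in HET mice at the 4 ages. Pdia6 averaged 12.28 ± 0.14, 11.53 ± 0.13, 11.21 ± 0.28 and 11.46 ± 0.37 in WT and 12.34 ± 0.13, 11.62 ± 0.12, 11.29 ± 0.16 and 10.98 ± 0.05 in HET mice. For both genes the E14.5 mice were higher than all mice at 1 month in each genotype. The share of all genes separated in this way is not given, and 85.5% of all genes in WT and 86.5% in HET mice were called at this step.

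Chaperones were mixed: 5 of 11 rose and 2 fell in WT mice. The J-domain cochaperones of BiP that rose were Dnajb9 (0.97), Dnajc3 (1.00) and Dnajb11 (0.24), while Manf, an ER-resident protein that can be secreted as a trophic factor, and Creld2 fell (-0.41 and -0.49). Dnajb9 averaged 9.45 ± 0.12, 10.42 ± 0.08, 10.45 ± 0.02 and 10.47 ± 0.15 in WT and 9.48 ± 0.04, 10.49 ± 0.07, 10.50 ± 0.04 and 10.49 ± 0.10 in HET mice at E14.5, 1, 6 and 12 months, and was almost level among the postnatal ages. Dnajc3 averaged 10.17 ± 0.22, 11.18 ± 0.14, 11.06 ± 0.23 and 11.07 ± 0.17 in WT and 10.19 ± 0.24, 11.32 ± 0.14, 11.12 ± 0.18 and 10.87 ± 0.07 in HET mice. Dnajb11, the cochaperone that hands unfolded clients to BiP, averaged 10.35 ± 0.12, 10.59 ± 0.13, 10.31 ± 0.19 and 10.35 ± 0.16 in WT and 10.41 ± 0.13, 10.73 ± 0.10, 10.32 ± 0.14 and 10.11 ± 0.05 in HET mice. Hsp90b1 averaged 13.25 ± 0.19, 13.26 ± 0.13, 13.14 ± 0.19 and 13.38 ± 0.26 in WT and 13.28 ± 0.19, 13.35 ± 0.07, 13.15 ± 0.15 and 13.02 ± 0.08 in HET mice. Hspa5 averaged 13.15 ± 0.25, 13.38 ± 0.15, 12.90 ± 0.44 and 13.10 ± 0.49 in WT and 13.14 ± 0.23, 13.49 ± 0.25, 13.13 ± 0.26 and 12.55 ± 0.06 in HET mice. The genes Sdf2l1, Manf and Creld2 encode smaller, stress-induced ER proteins. Sdf2l1 averaged 8.18 ± 0.33, 8.66 ± 0.25, 8.02 ± 0.48 and 8.26 ± 0.58 in WT and 8.13 ± 0.26, 8.80 ± 0.43, 8.17 ± 0.40 and 7.48 ± 0.17 in HET mice. Manf averaged 10.75 ± 0.19, 10.34 ± 0.14, 9.94 ± 0.32 and 10.10 ± 0.35 in WT and 10.80 ± 0.17, 10.46 ± 0.25, 10.07 ± 0.23 and 9.64 ± 0.08 in HET mice. Creld2 averaged 8.96 ± 0.22, 8.47 ± 0.19, 8.21 ± 0.39 and 8.23 ± 0.24 in WT and 9.02 ± 0.25, 8.68 ± 0.39, 8.33 ± 0.31 and 7.91 ± 0.18 in HET mice.

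The sensors moved apart from each other. Atf6 had the largest rise of the 49 genes, by 1.64 (SE 0.09, adjusted p = 9.6e-16) in WT and 1.70 (SE 0.07, adjusted p = 3.9e-19) in HET mice, and averaged 10.04 ± 0.11, 11.67 ± 0.13, 11.65 ± 0.11 and 11.57 ± 0.26 in WT and 10.001 ± 0.18, 11.70 ± 0.07, 11.56 ± 0.10 and 11.52 ± 0.11 in HET mice over the 4 ages. The other 3 sensors fell in each genotype. Ern1 averaged 8.30 ± 0.15, 7.72 ± 0.07, 7.82 ± 0.13 and 7.73 ± 0.20 in WT and 8.29 ± 0.29, 7.64 ± 0.16, 7.81 ± 0.12 and 7.75 ± 0.15 in HET mice. For Eif2ak3, the kinase that slows translation under stress, the fall was smaller. It averaged 10.03 ± 0.15, 9.65 ± 0.14, 9.69 ± 0.11 and 9.62 ± 0.24 in WT and 10.03 ± 0.20, 9.72 ± 0.10, 9.73 ± 0.07 and 9.78 ± 0.09 in HET mice. Atf6b, the close relative of Atf6, averaged 11.14 ± 0.09, 10.62 ± 0.05, 10.37 ± 0.08 and 10.40 ± 0.09 in WT and 11.15 ± 0.07, 10.61 ± 0.04, 10.39 ± 0.04 and 10.28 ± 0.10 in HET mice, so that it fell at the step where Atf6 rose.

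Of the transcription factors and effectors, Ddit3 (CHOP), Xbp1 and Atf4 rose in each genotype. Ddit3 averaged 7.64 ± 0.15, 8.62 ± 0.09, 8.76 ± 0.22 and 8.89 ± 0.13 in WT and 7.55 ± 0.12, 8.67 ± 0.18, 8.75 ± 0.12 and 8.60 ± 0.08 in HET mice. The rise of Xbp1, the target of IRE1, was smaller than that of Ddit3. Xbp1 averaged 10.66 ± 0.18, 11.21 ± 0.19, 11.04 ± 0.27 and 11.08 ± 0.23 in WT and 10.61 ± 0.15, 11.19 ± 0.21, 11.11 ± 0.17 and 10.75 ± 0.08 in HET mice. Atf4, whose product drives amino acid and antioxidant genes, averaged 11.30 ± 0.08, 11.43 ± 0.10, 11.65 ± 0.10 and 11.63 ± 0.11 in WT and 11.26 ± 0.12, 11.46 ± 0.07, 11.61 ± 0.09 and 11.45 ± 0.07 in HET mice. Trib3, a target of ATF4 and CHOP, was low throughout and fell by 0.47 (SE 0.24, adjusted p = 0.073) in WT mice, with means of 4.35 ± 0.68, 3.89 ± 0.33, 4.09 ± 0.31 and 4.66 ± 0.27 in WT and 4.31 ± 0.66, 4.03 ± 0.49, 4.46 ± 0.15 and 4.49 ± 0.31 in HET mice.

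Degradation genes were split, with 5 of 10 rising and 4 falling in WT mice. Herpud1, an ER membrane protein that brings substrates to the Hrd1 ligase, rose by 1.121 (SE 0.10, adjusted p = 8.8e-11) in WT mice and averaged 9.40 ± 0.11, 10.53 ± 0.16, 10.60 ± 0.25 and 10.54 ± 0.22 in WT and 9.35 ± 0.13, 10.60 ± 0.25, 10.57 ± 0.14 and 10.38 ± 0.13 in HET mice over the 4 ages. Its partners in the ligase complex also rose. Sel1l averaged 12.01 ± 0.18, 12.76 ± 0.11, 12.70 ± 0.10 and 12.74 ± 0.18 in WT and 11.98 ± 0.17, 12.82 ± 0.08, 12.70 ± 0.06 and 12.69 ± 0.06 in HET mice. Syvn1, the Hrd1 ligase itself, averaged 10.29 ± 0.17, 10.60 ± 0.10, 10.40 ± 0.13 and 10.39 ± 0.07 in WT and 10.27 ± 0.15, 10.62 ± 0.09, 10.40 ± 0.08 and 10.27 ± 0.09 in HET mice. Edem1, a mannosidase-like protein that marks glycoproteins for degradation, averaged 9.43 ± 0.13, 9.46 ± 0.10, 9.48 ± 0.08 and 9.41 ± 0.18 in WT and 9.49 ± 0.12, 9.34 ± 0.11, 9.46 ± 0.08 and 9.47 ± 0.11 in HET mice at the 4 ages, and was called only in HET mice (-0.15, SE 0.06, adjusted p = 0.027).

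The direction of 6 genes at this step turned with quantile normalization in at least one genotype. They were Hspa5, Hsp90b1, Calr, Canx, Ssr1 and Rpn1. In WT mice Hspa5 differed by 0.24 as deposited and by -0.17 after quantile normalization, and Canx by 0.35 and -0.09. In HET mice Canx was called in opposite directions, at 0.34 and -0.12, so no direction is given here for these 6 genes. Among the other members, the calls of Atf4 in both genotypes, of Derl3 in WT and of Hyou1 in HET mice were lost after quantile normalization. Centring each sample on its median turned the direction of Dnajc10 in both genotypes and of Rpn1 in WT mice, all uncalled on both scales, so none is given for Dnajc10. It also lost the calls of Erp29 in WT and of Erp44 and Edem3 in HET mice.

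**Figure D1:**
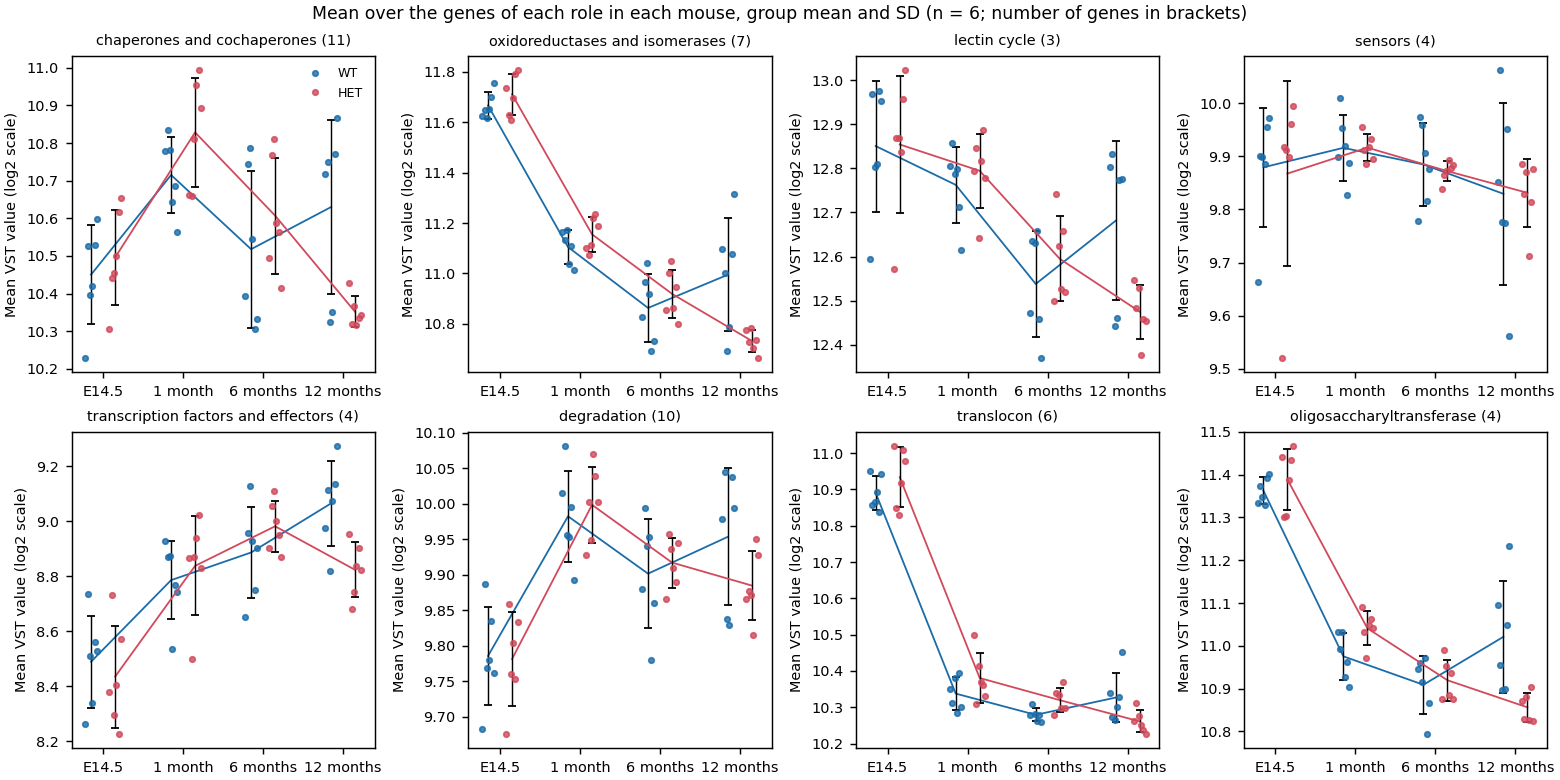
Mean VST value (log2 scale, y axis) of the genes of each role in each mouse by age (x axis), WT in blue and HET in red, with lines through the group means and bars for the SD (n = 6). The means of oxidoreductases, translocon and oligosaccharyltransferase genes were lower at 1 month than at E14.5, and at 12 months the chaperones of the 6 HET mice lay between 10.32 and 10.43 while the WT mice spanned 10.32 to 10.87.

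Between 1 and 6 months more of the folding genes fell than rose. In WT mice 3 of 49 genes rose and 12 fell, compared with 6.86% of all genes that rose and 7.91% that fell. In HET mice 4 rose and 21 fell, compared with 11% and 10.8%. The largest fall in each genotype was in Sdf2l1, an ER luminal partner of Dnajb11, at -0.64 (SE 0.22, adjusted p = 0.067) in WT and -0.63 (SE 0.17, adjusted p = 0.013) in HET mice. Among the other genes that fell were Hspa5 (-0.49 in WT, adjusted p = 0.0999), Pdia4 (-0.50), Manf (-0.41) and Calr (-0.38). Atf4 had the largest rise in WT mice, 0.22 (SE 0.06, adjusted p = 0.014), and Trib3 the largest positive difference in HET mice, 0.43 (SE 0.24, adjusted p = 0.25). In WT mice 0 members were called with replicates 1 to 3 alone and 3 with replicates 4 to 6 alone. In HET mice replicates 1 to 3 alone gave 2. Leaving out WT replicate 5 or 6 of 6 months lowered the WT count to 9. The shares of all genes called in these fits on fewer mice are not given, so the counts are not set against the background.

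From 6 to 12 months the genotypes were compared separately. In WT mice limma called 0 of 49 genes, with 11 higher and 0 lower at an unadjusted p below 0.05 (3.54% and 3.86% of all genes), and 0.0115% of all genes were called. The largest positive difference was in Derl3 (0.60, SE 0.26, adjusted p = 0.64) and the largest negative in Edem3 (-0.18, SE 0.09, adjusted p = 0.68). In HET mice 7 genes fell and none rose, against 1.27% of all genes called lower. The 7 were Sdf2l1 (-0.69, SE 0.17, adjusted p = 0.051), Hspa5 (-0.58, SE 0.11, adjusted p = 0.014), Pdia4 (-0.49), Manf (-0.43), Xbp1 (-0.37), Pdia6 (-0.31) and Pdia3 (-0.20). The largest positive difference was in Derl3 (0.15, adjusted p = 0.77). The HET call did not hold in every fit: 0 of the 49 genes (0.573% of all genes) were called when all 48 samples shared one variance, 0 with replicates 1 to 3 alone and 1 with replicates 4 to 6 alone. Without HET replicate 2 of 6 months 4 were called and without HET replicate 3 of that age 3, and these 2 mice had the highest Hspa5 values of their group (13.38 and 13.49). For the fits on fewer mice the shares of all genes called are not given, so their counts are not set against the background.

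The main question of the study is what heterozygous loss of Chd8 does at each age. At 12 months the chaperones, oxidoreductases and calreticulin of HET mice were below the WT mean at most genes, and the 4 sensors were spread around it. Of the 49 genes, 38 were lower in HET mice and the median difference was -0.16, whereas 48.6% of all 17288 genes tested were lower, with a median of 0.00. At an unadjusted p below 0.05, 22 of 49 genes (44.9%) were lower and 0 higher, compared with 5.39% of all genes lower and 6.18% higher. After adjustment over all genes limma called 0 of the 49, with a lowest adjusted p of 0.21, and 0.0463% of all genes were called. When the 48 samples were fitted together with one variance, 15 of 49 were called, all lower, beside 1.65% of all genes called lower. The median SD of the 49 genes was 0.17 in WT mice at 12 months and 0.07 to 0.13 in the other groups. One shared variance can therefore make errors at 12 months too small.

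BiP showed the size and the shape of the difference. Hspa5 had lowest, median and highest values of 12.44, 13.31 and 13.56 in WT and 12.49, 12.55 and 12.63 in HET mice at 12 months. WT replicates 1, 2, 5 and 6 were high (13.29, 13.33, 13.45 and 13.56), while WT replicates 3 and 4 (12.44 and 12.50) lay at the level of the HET mice, so the groups overlapped. The difference was -0.54 (SE 0.16, unadjusted p = 0.0039, adjusted p = 0.26), which corresponds to a HET level 0.69 times that of WT.

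Sdf2l1 had the largest difference of the 49 genes, -0.78 (SE 0.20, unadjusted p = 0.0012, adjusted p = 0.21). Its lowest, median and highest values were 7.44, 8.55 and 8.75 in WT and 7.29, 7.46 and 7.78 in HET mice, with WT replicates 3 and 4 at 7.44 and 7.60. These 2 WT mice lay within the HET range and the 4 others above it. Manf ranged over 9.64, 10.22 and 10.46 in WT and 9.52, 9.63 and 9.78 in HET mice, a difference of -0.46 (SE 0.12, unadjusted p = 0.0015, adjusted p = 0.22). The nucleotide exchange factor of BiP, Hyou1, averaged 11.87 ± 0.23 in WT and 11.59 ± 0.06 in HET mice at 12 months (n = 6), after 11.75 ± 0.23, 11.89 ± 0.12 and 11.72 ± 0.19 in WT and 11.78 ± 0.17, 11.94 ± 0.10 and 11.77 ± 0.12 in HET at the 3 younger ages, and differed by -0.28 (SE 0.08, unadjusted p = 0.0045, adjusted p = 0.26). The other chaperones below an unadjusted p of 0.05 were Hsp90b1 (-0.35, SE 0.09), Creld2 (-0.32, SE 0.11), Dnajb11 (-0.24, SE 0.07) and Dnajc3 (-0.20, SE 0.07). The 3 chaperones that were not lower were Dnajb9 (0.02, SE 0.07), Sil1 (0.04, SE 0.07) and Dnajc10 (0.05, SE 0.05), a J-domain reductase.

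All 7 oxidoreductases and isomerases were lower, 5 of them at an unadjusted p below 0.05. Pdia6 had values of 10.95, 11.61 and 11.87 in WT and 10.94, 10.96 and 11.06 in HET mice and differed by -0.48 (SE 0.12, unadjusted p = 0.0013, adjusted p = 0.21). Again WT replicates 3 and 4 (10.95 and 11.05) were the lowest WT mice. Pdia4 differed by -0.42 (SE 0.13) and Pdia3 by -0.36 (SE 0.10). Of the lectin cycle, Calr ranged over 13.04, 13.63 and 13.97 in WT and 12.94, 13.05 and 13.19 in HET mice and differed by -0.45 (SE 0.13, unadjusted p = 0.003, adjusted p = 0.25), whereas calnexin, its membrane-bound relative, did so by -0.10 (SE 0.06, unadjusted p = 0.091, adjusted p = 0.49). Over the 4 ages Calr averaged 13.53 ± 0.14, 13.53 ± 0.09, 13.15 ± 0.20 and 13.51 ± 0.38 in WT and 13.55 ± 0.13, 13.59 ± 0.09, 13.25 ± 0.15 and 13.06 ± 0.10 in HET mice, and Canx 13.27 ± 0.16, 13.62 ± 0.10, 13.49 ± 0.07 and 13.59 ± 0.10 in WT and 13.30 ± 0.16, 13.64 ± 0.09, 13.54 ± 0.10 and 13.49 ± 0.05 in HET mice.

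None of the 4 sensors had an unadjusted p below 0.05. Their differences were 0.02 (SE 0.10) for Ern1, 0.16 (SE 0.09, unadjusted p = 0.099, adjusted p = 0.5) for Eif2ak3, -0.05 (SE 0.10) for Atf6 and -0.12 (SE 0.06) for Atf6b (unadjusted p = 0.050). Downstream of them, Ddit3 had the lowest unadjusted p of the 49 genes, with values of 8.67, 8.91 and 9.06 in WT and 8.54, 8.57 and 8.71 in HET mice and a difference of -0.29 (SE 0.07, unadjusted p = 0.00061, adjusted p = 0.21). Only WT replicate 3 (8.67) lay within the HET range. Xbp1 ranged over 10.74, 11.11 and 11.36 in WT and 10.67, 10.73 and 10.88 in HET mice, a difference of -0.33 (SE 0.09, unadjusted p = 0.0013, adjusted p = 0.21), and here too WT replicate 3 alone lay within the HET range. Atf4 differed by -0.17 (SE 0.06) and Trib3 by -0.17 (SE 0.17).

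Among degradation genes 6 of 10 were lower and 4 higher, and only Derl1, a channel-like protein of the degradation route, had an unadjusted p below 0.05, with a difference of -0.17 (SE 0.06, unadjusted p = 0.015, adjusted p = 0.33). The positive difference with the lowest p was in Edem2 (0.09, SE 0.07, unadjusted p = 0.21, adjusted p = 0.61). Herpud1 differed by -0.16 (SE 0.09), Sel1l by -0.05 (SE 0.07), Syvn1 by -0.11 (SE 0.05) and Edem1 by 0.06 (SE 0.08). In the translocon Sec61a1 (-0.14, SE 0.05, unadjusted p = 0.013, adjusted p = 0.32) and Ssr3, a subunit of the translocon-associated protein complex (-0.14, SE 0.06), were lower, and the differences of Sec61b (0.00, SE 0.08) and Ssr1 (0.00, SE 0.05) were smaller than their SE. All 4 oligosaccharyltransferase genes were lower, led by Rpn1 (-0.20, SE 0.06, unadjusted p = 0.0047, adjusted p = 0.27). The median difference was -0.28 for chaperones, -0.20 for oxidoreductases, -0.10 for the lectin cycle, -0.23 for transcription factors and effectors, -0.19 for the oligosaccharyltransferase, -0.08 for degradation, -0.06 for the translocon and -0.01 for sensors. The differences between roles were not tested.

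**Figure D2:**
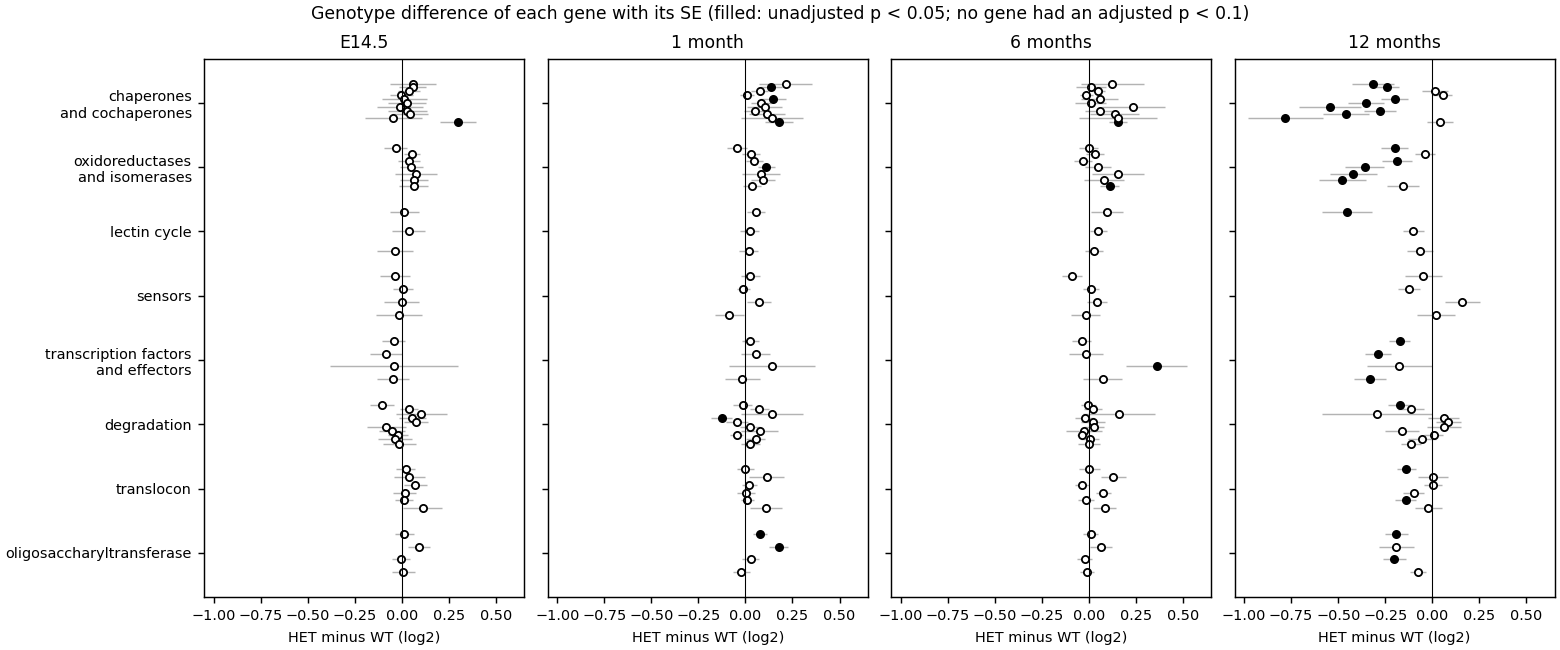
Difference between HET and WT (log2, x axis) of each of the 49 genes with its SE, by role (rows) at each age (panels). Filled points had an unadjusted p below 0.05, of which 22 lay below 0 at 12 months and none above. At no age did any of the 49 genes have an adjusted p below 0.1 in the fit of one age.

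The groups did not overlap for 2 genes, Erp29 and Ssr3, in which all 6 HET mice were below all 6 WT mice at 12 months (0.497% of all genes). Erp29, an ER chaperone of the thioredoxin fold without redox activity, had values of 10.38, 10.46 and 10.87 in WT and 10.24, 10.34 and 10.36 in HET mice (-0.20, SE 0.07, unadjusted p = 0.013, adjusted p = 0.32), and Ssr3 11.98, 12.00 and 12.28 and 11.90, 11.91 and 11.96 (-0.14, SE 0.06, unadjusted p = 0.022, adjusted p = 0.35). For most chaperones the overlap came from the same 2 WT mice. Replicates 3 and 4 were the 2 lowest WT mice in 24 of 49 genes and the 2 highest in 2, compared with 10.1% and 11.1% of all genes tested. The 24 held 9 of 11 chaperones, 5 of 7 oxidoreductases and 1 of 4 sensors. This pair was singled out after the values had been seen. Over the 11 chaperones the mean was 10.72, 10.75, 10.77 and 10.87 in WT replicates 1, 2, 5 and 6 and 10.32 and 10.35 in WT replicates 3 and 4, and it ranged from 10.32 to 10.43 in HET mice.

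The same 4 WT mice stood apart in genes outside the ER. The mean of 8 cytosolic heat shock genes was 10.67, 10.95, 11.07 and 10.85 in WT replicates 1, 2, 5 and 6, 10.01 and 10.23 in replicates 3 and 4, and 10.16 to 10.25 in HET mice. Of these 8 genes, 6 were lower in HET mice at an unadjusted p below 0.05. Hspa1b, an inducible Hsp70, was 8.27, 8.75, 8.91 and 8.38 in those 4 mice, 6.92 and 7.39 in the other two and 7.11 to 7.36 in HET mice. The RNA-binding protein genes Cirbp and Rbm3, which are induced by mild cold, went the other way, with means of 9.29, 9.48, 9.47 and 9.32 in the 4 mice, 10.46 and 10.41 in WT replicates 3 and 4, and 9.94 to 10.48 in HET mice, and both genes were higher in HET mice at an unadjusted p below 0.05. The clock output gene Dbp was 10.05, 9.86, 9.81 and 10.03 in the 4 mice and 10.86 and 10.88 in WT replicates 3 and 4, and 10.15 to 11.01 in HET mice, and 2 of 9 clock genes were higher and 1 lower in HET mice at an unadjusted p below 0.05. Of the markers of neurons (5 genes), astrocytes (6) and oligodendrocytes (5), 0 had an unadjusted p below 0.05 for genotype at this age. Single WT mice differed in them. Replicates 1 and 6 had the lowest neuron means (14.45 and 14.43, the other WT mice 14.68 to 14.78). They also had the highest astrocyte means (13.40 and 13.42, the others 13.03 to 13.34), which replicates 2 and 5 did not share. The part of heat shock, cold-induced, clock and cell type marker genes in the ER result was not tested.

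The direction at 12 months was shared by both sets of replicates. The deposited values had been adjusted so that replicates 1 to 3 and 4 to 6 had the same mean for each gene. With replicates 1 to 3 alone the median was -0.11 and 39 of 49 differences were negative, and with replicates 4 to 6 alone 40 were negative around a median of -0.19. Hspa5 differed by -0.44 and -0.64 in the 2 sets. Leaving out WT replicate 3 gave 13 called genes, all lower, beside 0.822% of all genes called lower, and leaving out any of the other 11 mice gave 0.

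**Figure D3:**
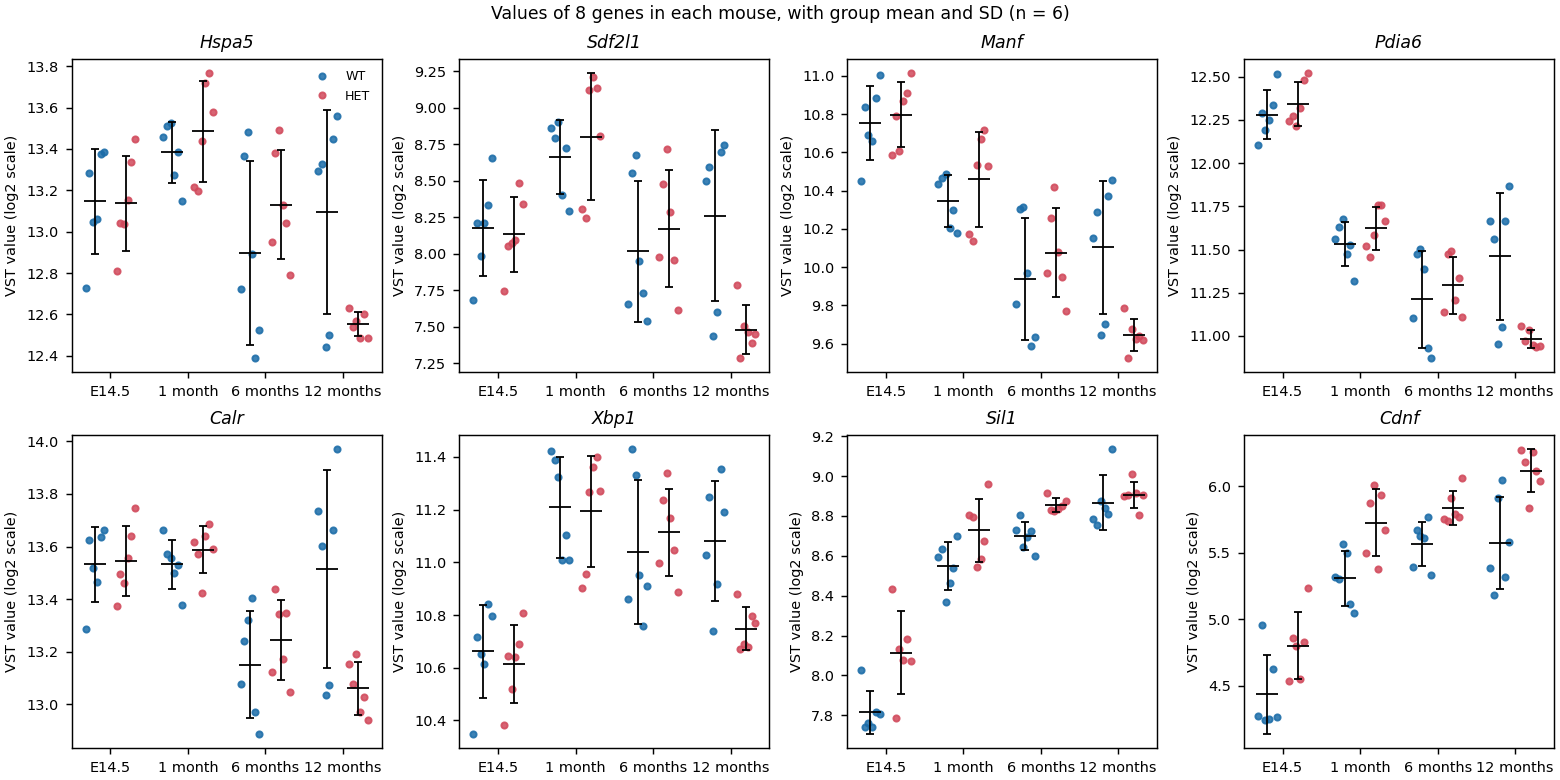
VST values (log2 scale, y axis) of Hspa5, Sdf2l1, Manf, Pdia6, Calr, Xbp1, Sil1 and Cdnf in each mouse by age (x axis), WT in blue and HET in red, with group mean and SD (n = 6). At 12 months replicates 3 and 4 are the 2 lowest WT mice for the first 6 genes while the 6 HET mice lie together at the low end, and Sil1 and Cdnf are higher on average in HET mice at every age.

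**Figure D4:**
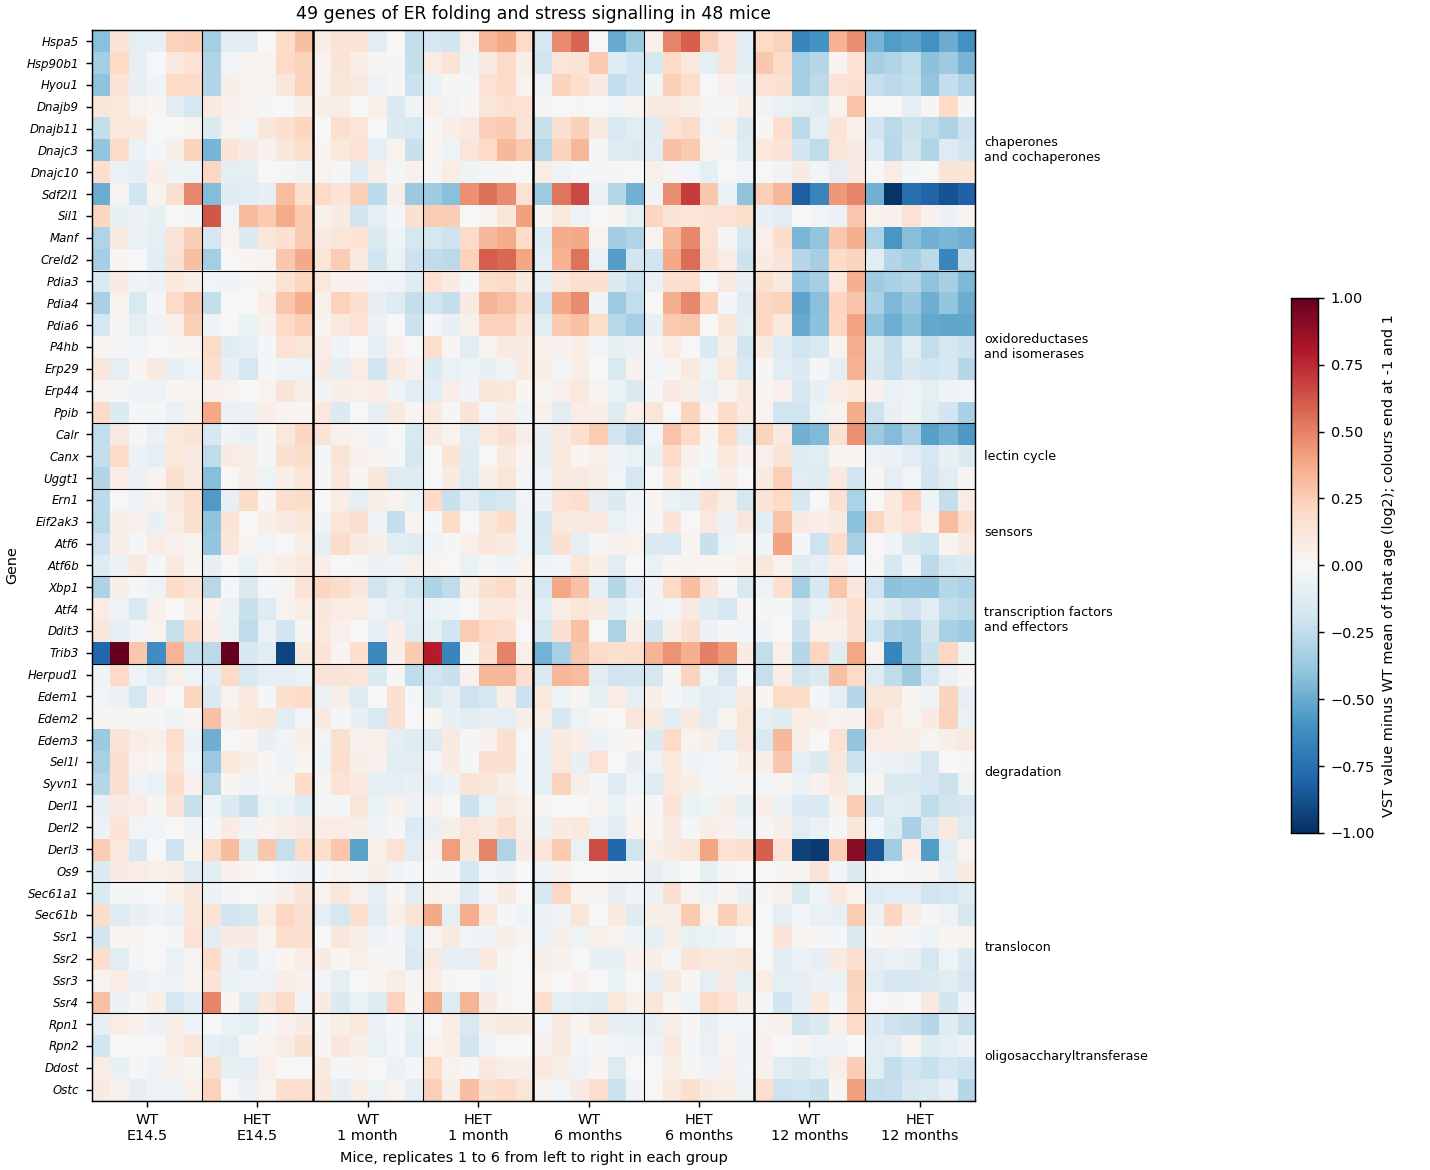
VST value of each of the 49 genes (rows, by role) in each of the 48 mice (columns) minus the WT mean of that age (log2, red above and blue below, colours end at -1 and 1). WT replicates 3 and 4 at 12 months are blue for most chaperones and for several oxidoreductases, as are the 6 HET mice, and replicates 2 and 3 of both genotypes at 6 months and replicates 4 to 6 of HET at 1 month are red for several of these genes, among them Hspa5, Manf, Creld2 and Pdia4.

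Wide differences between mice in the same genes were also present at 6 months, in both genotypes. At 6 months Hspa5 had lowest, median and highest values of 12.39, 12.81 and 13.48 in WT and 12.79, 13.09 and 13.49 in HET mice. Replicates 2 and 3 were the 2 highest mice in both genotypes for 14 of the 49 genes, against 2.95% of all genes, among them Hspa5, Sdf2l1, Manf, Creld2, Pdia4, Pdia6, Xbp1 and Ddit3. In these mice Sdf2l1 was 8.55 and 8.68 in WT and 8.48 and 8.72 in HET mice, compared with 7.54 and 7.61 in the lowest mouse of each genotype. Heat shock genes averaged 10.87 and 10.82 in WT replicates 2 and 3 and 10.75 and 10.79 in HET replicates 2 and 3, the 2 highest of each genotype. The pair was again chosen after the values had been seen, and the part of heat shock genes was not tested.

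**Figure D5:**
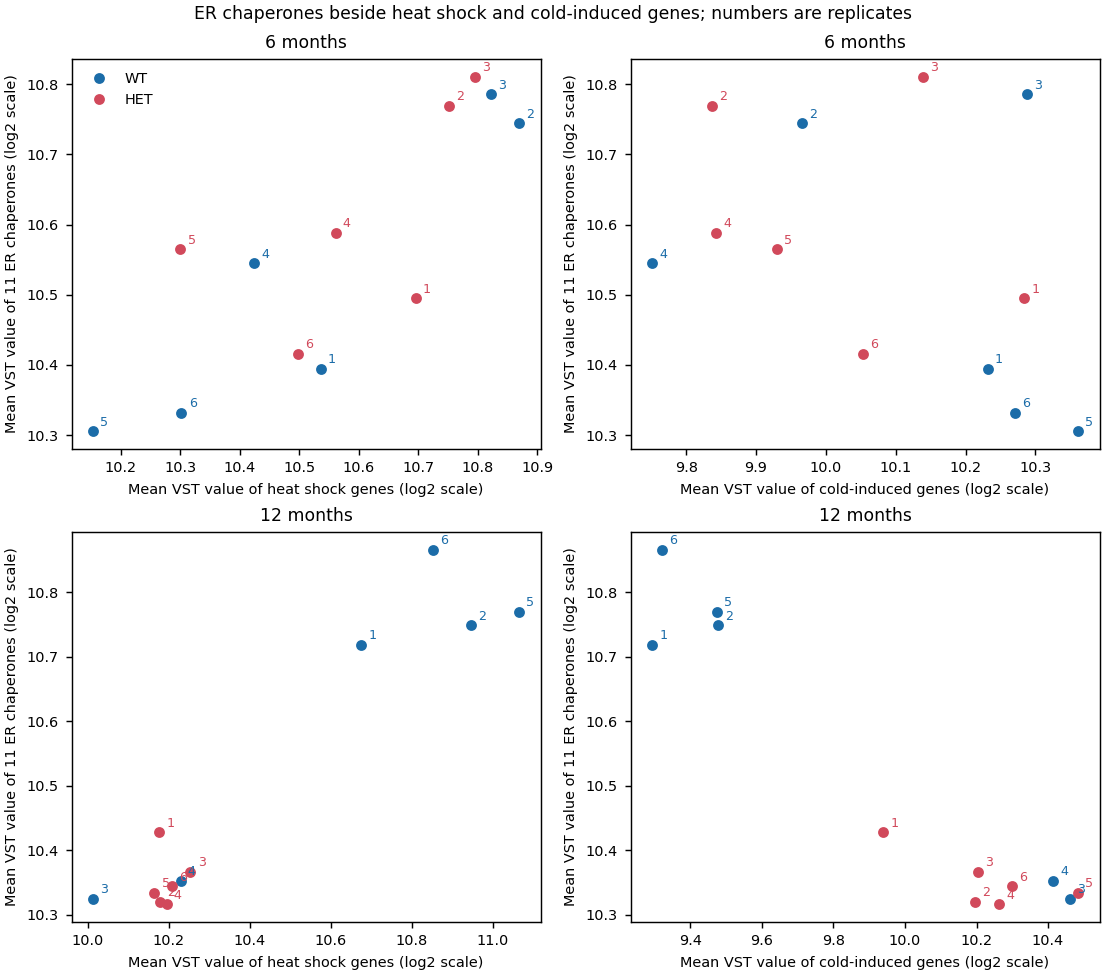
Mean VST value of the 11 chaperones (log2 scale, y axis) against that of 8 heat shock genes (left) and of the 2 cold-induced genes (right) in each mouse at 6 months (top) and 12 months (bottom), with the replicate number beside each point, WT in blue and HET in red. At 12 months WT replicates 1, 2, 5 and 6 lie apart with high heat shock and low cold-induced genes, and at 6 months replicates 2 and 3 of both genotypes are highest in chaperones and heat shock genes.

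At 6 months the genotype comparison gave 0 called genes of 49 by limma (0.0927% of all genes), with 3 higher and 0 lower at an unadjusted p below 0.05 (3.54% and 4.05% of all genes). They were Sil1 (0.15, SE 0.05, unadjusted p = 0.0053, adjusted p = 0.42), the cyclophilin Ppib (0.11, SE 0.05, unadjusted p = 0.042, adjusted p = 0.63) and Trib3 (0.36, SE 0.16, unadjusted p = 0.04, adjusted p = 0.63). In the other roles the lowest unadjusted p belonged to Calr (0.09, SE 0.09, unadjusted p = 0.28, adjusted p = 0.86), Atf6 (-0.09, SE 0.05, unadjusted p = 0.12, adjusted p = 0.77), Os9 (-0.03, SE 0.03, unadjusted p = 0.3, adjusted p = 0.86), Sec61b (0.13, SE 0.06, unadjusted p = 0.06, adjusted p = 0.68) and Ostc (0.06, SE 0.06, unadjusted p = 0.29, adjusted p = 0.86). The member with the lowest p in the direction opposite to these was Dnajc10 among chaperones (-0.01, SE 0.03), P4hb among oxidoreductases (-0.03, SE 0.05), Eif2ak3 among sensors (0.04, SE 0.05), Atf4 among transcription factors (-0.04, SE 0.05), Derl3 in degradation (0.16, SE 0.19), Ssr1 in the translocon (-0.03, SE 0.04) and Rpn1 in the oligosaccharyltransferase (-0.02, SE 0.04). Chaperone differences were positive for 10 of 11 genes, with a median of 0.06, opposite in sign to 12 months. At this age 4 of 5 oligodendrocyte markers were lower in HET mice at an unadjusted p below 0.05 and 3 of 6 astrocyte markers were higher. The mean and range of the oligodendrocyte markers were 13.26 (13.15 to 13.39) in WT and 13.07 (12.86 to 13.19) in HET mice, and those of the astrocyte markers 13.17 (13.06 to 13.33) and 13.31 (13.18 to 13.49). Their part in the values of the 49 genes was not tested.

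At 1 month 40 of 49 genes were higher in HET mice, with a median of 0.05. Limma called 0 of them (0.139% of all genes), with 6 higher and 1 lower at an unadjusted p below 0.05, compared with 3.73% and 5.07% of all genes. The lowest p belonged to Ostc (0.18, SE 0.05, unadjusted p = 0.0026, adjusted p = 0.31), followed in other roles by Pdia3 (0.11, SE 0.04, unadjusted p = 0.021, adjusted p = 0.47), Sil1 (0.18, SE 0.08, unadjusted p = 0.031, adjusted p = 0.5) and, in the lower direction, Edem1 (-0.13, SE 0.06, unadjusted p = 0.043, adjusted p = 0.55). The other roles were led by Calr (0.06, SE 0.05), Eif2ak3 (0.07, SE 0.07) and Ern1 (-0.08, SE 0.08), Ddit3 (0.06, SE 0.08) and Xbp1 (-0.02, SE 0.09), Derl2 (0.07, SE 0.05), Ssr4 (0.11, SE 0.09), Erp29 (-0.05, SE 0.05) and Rpn2 (-0.02, SE 0.05).

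The 2 sets of replicates went in opposite directions at 1 month. With replicates 1 to 3 alone 38 of 49 genes were lower in HET mice (median -0.06, 0 called by limma, 5 lower and 0 higher at an unadjusted p below 0.05, beside 3.82% of all genes lower), and with replicates 4 to 6 alone 40 were higher (median 0.14) and 11 were called, beside 0.953% of all genes called higher. The 11 were Hspa5, Sdf2l1, Manf, Creld2, Dnajb11, Dnajc3, Pdia3, Pdia4, Pdia6, Xbp1 and Herpud1. Creld2 had values of 8.22, 8.20 and 8.70 in HET replicates 1 to 3 and 9.08, 9.04 and 8.86 in replicates 4 to 6, compared with 8.59, 8.73 and 8.56 and 8.28, 8.40 and 8.26 in WT mice. Its difference was -0.25 in the first set and 0.68 in the second, and 0.21 (SE 0.14, unadjusted p = 0.16, adjusted p = 0.7) in both together. The difference pooled over the 6 replicates did not hold within both sets. At this age 3 of 5 activity-induced genes were lower in HET mice at an unadjusted p below 0.05, with list means of 11.85 (11.22 to 12.11) in WT and 11.53 (11.22 to 11.80) in HET mice, and their part was not tested.

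At E14.5 no member was called by limma (0.00593% of all genes), and 1 member was higher and 0 lower at an unadjusted p below 0.05, beside 2.21% and 2.35% of all genes. It was Sil1, at 0.30 (SE 0.10, unadjusted p = 0.0074, adjusted p = 0.98). At this age 2 of 8 markers of midbrain, hindbrain and spinal cord were lower in HET embryos at an unadjusted p below 0.05, and the list mean was 4.95 in WT and 3.87 in HET embryos. The part of these markers in the Sil1 value was not tested. The members with the lowest p in each other role and direction had differences between -0.11 for Derl1 and 0.09 for Ostc, and the median over the 49 genes was 0.01. Hspa5 had values of 12.73, 13.17 and 13.39 in WT and 12.81, 13.10 and 13.45 in HET embryos. Replicate 1 of each genotype was low in several genes: the sensors averaged 9.66 in WT and 9.52 in HET replicate 1, compared with 9.89 to 9.97 and 9.90 to 9.995 in the 5 other embryos. No count of called members at E14.5 changed when either was left out.

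Whether the genotype difference at 12 months differed from that at a younger age was tested with an interaction term in one fit. The 3 tests share the 12-month mice, and all 48 samples share one variance in them. Limma called 0 of 49 genes against E14.5, 0 against 1 month and 0 against 6 months, beside 0.0791%, 0.0117% and 0.0585% of all genes. At an unadjusted p below 0.05 there were 20, 22 and 22 genes more negative at 12 months and 0 less negative, while 5.85%, 5.53% and 4.25% of all genes were more negative. For Hspa5 the interaction was -0.53 (SE 0.23, unadjusted p = 0.025, adjusted p = 0.35) against E14.5, -0.65 (SE 0.23, unadjusted p = 0.0072, adjusted p = 0.26) against 1 month and -0.78 (SE 0.23, unadjusted p = 0.0014, adjusted p = 0.28) against 6 months. Without WT replicate 3 of 12 months 7, 11 and 7 members were called, and without WT replicate 4 of that age 3, 11 and 5. These mice were singled out after the values had been seen. They lay at the level of the HET mice for most chaperones, so leaving either out widens the difference. Against E14.5, leaving out WT replicate 6 of that age gave 6. The shares of all genes called in these fits are not given, so the counts are not set against the background. Against 1 month, replicates 4 to 6 alone gave 14 called members, all more negative, and 0.325% of all genes.

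The genes with a full ER stress response element in the promoter window described above were followed as a group. All 9 were lower in HET mice at 12 months, 6 of them at an unadjusted p below 0.05, with a median of -0.32 and a range of -0.54 to -0.10. Of the 31 members whose window held no full element, 21 were lower, 11 of them at an unadjusted p below 0.05. Their median was -0.11 and their range -0.78 to 0.16, and Sdf2l1 and Ddit3 were among them. Over all genes tested 48.6% were lower, and 5.39% were lower at an unadjusted p below 0.05. Among 28 genes outside the list that held the element, 13 were found under the same symbol in the deposited table and passed the filter on low values. Of these 13, 5 were lower and 8 higher, with a median of 0.04. Genes with another symbol in the table, such as Ero1b (Ero1lb there), were left out whatever their level. At 1 and 6 months all 9 members with the element were higher in HET mice, with medians of 0.09 and 0.08. Of the 31 members without it, 24 and 19 were also higher at these ages, with medians of 0.03 and 0.01. Over all genes tested, 8369 of 17221 and 8555 of 17256 were higher. These are descriptions of letters in a window and were not tested.

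Sil1, a nucleotide exchange factor that releases clients from BiP, was higher on average in HET mice at all 4 ages. It averaged 7.82 ± 0.11, 8.55 ± 0.12, 8.70 ± 0.07 and 8.87 ± 0.14 in WT and 8.11 ± 0.21, 8.73 ± 0.16, 8.85 ± 0.03 and 8.91 ± 0.07 in HET mice at E14.5, 1, 6 and 12 months. At 6 months its lowest, median and highest values were 8.60, 8.71 and 8.80 in WT and 8.82, 8.84 and 8.92 in HET mice, and the groups did not overlap (0.226% of all genes). At 12 months they overlapped, with a difference of 0.04 (SE 0.07). The genotype difference averaged over the 4 ages, a comparison added after these values had been seen, was 0.17 (SE 0.04, adjusted p = 0.0048), and Sil1 was the only one of the 49 genes called in it, beside 3.32% of all genes. Without E14.5 it was 0.12 (SE 0.04, adjusted p = 0.072) and without 6 months 0.17 (SE 0.05, adjusted p = 0.071). Leaving out all mice of 12 months, or WT replicate 6 of E14.5, gave 2 called members instead of 1. The shares of all genes called in these fits are not given.

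In 84 further genes of the same pathways limma called 0 in the genotype comparison of any one age. At an unadjusted p below 0.05 the E14.5 cortex had 3 higher and 0 lower, the cortex of 1-month mice 4 and 2, that of 6-month mice 5 and 0, and that of 12-month mice 3 and 7. Over all genes the shares higher and lower were, in the same order, 2.21% and 2.35%, 3.73% and 5.07%, 3.54% and 4.05%, and 6.18% and 5.39%. The lowest p at 12 months belonged to Cdnf, a relative of Manf, at 0.55 (SE 0.15, unadjusted p = 0.0021, adjusted p = 0.23), and in the lower direction to Stt3b, a catalytic subunit of the oligosaccharyltransferase, at -0.19 (SE 0.06, unadjusted p = 0.0038, adjusted p = 0.25). At E14.5 Cdnf also had the lowest p (0.37, SE 0.16, unadjusted p = 0.039, adjusted p = 0.98), at 1 month it was Tmem258 (0.21, SE 0.06, unadjusted p = 0.0039, adjusted p = 0.33) and, lower, Sec61a2 (-0.07, SE 0.03, unadjusted p = 0.041, adjusted p = 0.55), and at 6 months the NF-Y subunit gene Nfya (0.19, SE 0.05, unadjusted p = 0.0015, adjusted p = 0.3). Cdnf is known, like Manf, as an ER-resident protein with trophic activity, and it was higher in HET mice at each age. It averaged 4.44 ± 0.30, 5.31 ± 0.21, 5.57 ± 0.17 and 5.57 ± 0.35 in WT and 4.80 ± 0.25, 5.73 ± 0.25, 5.84 ± 0.13 and 6.12 ± 0.16 in HET mice, so its level was low. At 12 months the values were 5.18, 5.49 and 6.05 in WT and 5.84, 6.15 and 6.27 in HET mice, where WT replicates 3 and 4, at 5.91 and 6.05, overlapped the HET range. Averaged over the 4 ages its difference was 0.40 (SE 0.07, adjusted p = 0.00027). The directions of Cdnf and Manf were opposite at 12 months only, as Manf also averaged higher in HET mice at E14.5, 1 and 6 months. Also called in this average were Erlin2, of a complex that recruits ubiquitin ligases, at 0.06 (SE 0.020, adjusted p = 0.095) and the ubiquitin ligase gene Rnf5 at -0.09 (SE 0.026, adjusted p = 0.068). Over all genes 3.32% were called in this average, a comparison added after the values had been seen. The calls among the 84 genes are therefore not read as a result about these pathways.

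The spread between mice is given next, with no test. At 12 months the median SD of the 49 genes was 0.17 in WT and 0.07 in HET mice, while the median over all genes tested was 0.18 and 0.12. For Hspa5 the SD was 0.49 in WT and 0.06 in HET mice at 12 months, and 0.44 and 0.26 at 6 months. Among the 49 genes, Sdf2l1 was one of the 3 genes with the widest spread in 7 of the 8 groups.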

How the data were processed

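Polyadenylated RNA from 48 mouse cortices was sequenced. The authors filtered reads, trimmed adapters, aligned reads to mm9 with STAR 2.5.2b, quantified transcripts with Salmon 0.11.3 and processed them with DESeq2 1.22.2. The deposited values are variance-stabilized values on the log2 scale, in which the authors had removed a difference between replicates 1 to 3 and replicates 4 to 6: for every gene the means of these sets were equal. What distinguishes the sets is not given in the sources used here. The labels and the methods name different library kits. Counts were not used here, so the depth behind a gene is unknown and no counting interval is given, and the removal of the set difference can make errors slightly too small. Nothing says that replicates are separate litters, and p-values measure the spread between these samples.

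Each age was tested with limma 3.58.1 (R 4.3.3, intensity trend) on 12 samples, on genes with a mean at least 0.5 above the most frequent low value of 2.14 (15.7% of values), with Benjamini-Hochberg adjustment over all genes and a threshold of 0.1. Steps between ages were fitted on the 24 samples of a genotype, and interactions and the average over ages on all 48. Fits were tested on simulated data. All p-values are two-sided. Differences are on the VST scale, which understates changes of low genes.

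The genes, lists and tests were chosen with earlier results of these data known. Named were 27 members fixed by role with values at every age, and for each genotype comparison every called member or otherwise the member with the lowest unadjusted p in each direction within a role. Also named were the largest rise and fall of each age step, the highest and lowest level of each role, and the same choice by p among 84 other pathway genes. Erp29 and Ssr3 (no overlap), Sil1 and Cdnf over the ages, P4hb, Sec61a1, Pdia3 and other members given as examples were chosen after their values were seen, as was the search for element II. Heat shock, clock, cold-induced and cell type lists were fixed with the other lists. The other marker lists at 12 months had these counts at an unadjusted p below 0.05: microglia 1 higher and 1 lower of 5, endothelial and mural cells 1 lower of 5, striatum 1 lower of 5, and choroid plexus (5), blood (3), midbrain, hindbrain and spinal cord (8) and activity-induced genes (5) 0. Promoter windows were taken from RefSeq (GRCm38.p6); no window was matched for Hyou1, Sil1, Manf, Erp29, Atf6, Derl1, Sec61a1, Ssr2 and Ostc. Gene positions and lengths follow mm9. One list of tissue markers is not reported here.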

Additional observations from a re-analysis of the deposited data

Results flagged for a closer look

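The 6 values of a gene or role mean in one of the 8 groups were taken as a set, and 296 such sets were checked. Of these, 19 held a mouse that stood far from the other 5 for the width of the set, and chance gives about 14.8, or 1 in 20. The sets share mice and genes, so they are not independent. Replicate 1 at E14.5 accounted for 11 of the 19. In the HET embryo it was lowest for Hyou1 (11.45), Dnajc3 (9.71), Ern1 (7.74), Eif2ak3 (9.64), Atf6 (9.65), Sel1l (11.64) and the mean of the sensors (9.52). In the WT embryo it was lowest for Dnajb11 (10.11), Atf6 (9.83) and the mean of the sensors (9.66), and highest for Sil1 (8.03). At E14.5 HET replicate 2 was highest for Herpud1 (9.60). At 1 month WT replicate 4 was lowest for Trib3 (3.24), HET replicate 3 lowest for Rpn1 (11.68) and HET replicate 2 lowest for the mean of the transcription factors and effectors (8.499). At 6 months HET replicate 1 was lowest for Atf6b (10.31). At 12 months WT replicate 6 was highest for Sil1 (9.14) and Sec61b (8.29), and HET replicate 5 highest for Dnajb9 (10.67). The part of marker genes of other brain regions in the E14.5 values was not tested.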

How the results depend on the processing

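Counts of called members depended on the fit at the threshold. Where no share of all genes called stands beside a count, it is not given, and that count is not set against the background. In one fit of all 48 samples 1 member was called for genotype at E14.5. At 12 months 15 were called (1.65% of all genes called lower), and 0 for HET mice from 6 to 12 months (0.573% of all genes). Array weights gave 27 for WT mice from 1 to 6 months and 16 for HET mice from 6 to 12 months. With replicates 1 to 3 alone, 0 were called for WT and 2 for HET mice from 1 to 6 months and 0 for HET mice from 6 to 12 months. With replicates 4 to 6 alone, 11 were called for genotype at 1 month (0.953% of all genes called higher) and 14 for 12 months against 1 month (0.325% called lower). In the same set 3 were called for WT mice from 1 to 6 months and 1 for HET mice from 6 to 12 months. The difference of Xbp1 at 1 month turned there from -0.02 to 0.30. The cause was not tested. Leaving out 1 mouse at a time gave, from 1 to 6 months, 9 to 17 called members in WT and 21 to 27 in HET mice; from 6 to 12 months 0 in WT and 3 to 8 in HET mice; and from E14.5 to 1 month 36 to 40 and 39 to 42. For genotype it gave 0 at E14.5, 1 and 6 months and 0 to 13 at 12 months, for the interactions 0 to 7 against E14.5, 0 to 11 against 1 month and 0 to 7 against 6 months, and for the average over ages 1 to 2.

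Same-numbered samples of the genotypes did not deviate together at every age: the mean correlation of their deviations was 0.23 in embryos and, with rising age, 0.02, 0.05 and -0.03 after birth, so the number was not taken as a pairing. When a block for replicate number was added to the fit of all samples, 1 member was called for genotype at E14.5, 16 at 12 months and 0 for HET mice from 6 to 12 months. Of the planned and added alternatives counted for single members, other than leaving out a mouse, 1355 were labelled the same, 31 stronger and 26 moved. Only 1, Xbp1 as given above, was labelled reversed. Other turned directions given above were not labelled so, such as those from E14.5 to 1 month after quantile normalization and that of Creld2 at 1 month. The count therefore does not show that other directions held in every fit.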
